A study of Callithrix jacchus with 4 samples.

Results

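The nuclei described here are *LAMA2*+ vascular nuclei of marmoset primary visual cortex (V1), which means nuclei that the authors placed in their Endo (vascular) class and that held at least 1 UMI of *LAMA2* and 0 UMIs of *FLT1*. A UMI (unique molecular identifier) marks 1 captured transcript. *LAMA2* encodes a laminin chain that brain fibroblasts make, and *FLT1* encodes a VEGF receptor of endothelial cells. The rule found 665 nuclei among 4625 Endo nuclei and 38147 nuclei in all. The 3 injured libraries came from adult marmosets F1619, F1565 and F1711 (injured replicates 1, 2 and 3), 1 animal a library, and V1 was taken 7 days after an ischemic stroke made with endothelin-1, a peptide that constricts vessels. The dissected injured tissue took in the core of the lesion and its rim. The control library pooled V1 nuclei of 3 uninjured adult marmosets, and how far control animals differ from each other is unknown. The cohorts also differed in the way nuclei were isolated, in the sequencing instrument and in how doublets were removed, so these differences and the injury cannot be told apart.

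Fibroblasts of the brain lie in the meninges and around larger vessels, in the space between the vessel wall and the glial border. They make collagens, laminins and proteoglycans, and in the resting brain they carry solute transporters such as *SLC6A13*, a carrier of GABA and taurine. After injury, fibroblasts are known for depositing the collagen-rich core of a scar. Pericytes and smooth muscle cells wrap the same vessels and share some of these genes, and a vascular class can hold all of these cells beside endothelial cells.

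The *LAMA2*+ nuclei made up 10.4%, 12.7% and 13.1% of Endo nuclei in injured replicates 1, 2 and 3 (106 of 1021, 221 of 1735 and 221 of 1688), which is 12.1% ± 1.47 (SD, n = 3). In the control library they made up 64.6% (117 of 181; exact 95% binomial interval 57.2% to 71.6%). As a share of all nuclei the order was not the same, with 1.41%, 1.76% and 2.32% in the injured libraries and 1.36% in the control library (95% interval 1.13% to 1.63%). The control library thus held few Endo nuclei of any kind, and most of them met the rule. These shares describe what the rule selected and were not tested. With each nucleus thinned to 1000 UMIs, which leaves out shallower nuclei (696, 1291, 1222 and 85 Endo nuclei stayed), the shares of Endo nuclei were 11.5%, 13.6% and 13.9% against 74.1%. With *FLT1* ignored, the injured mean was 20.0% and the control share 65.7%. The median *LAMA2*+ nucleus held 3315.5, 2278 and 2962 UMIs in the injured libraries and 1038 in the control library, and the counts summed over them were 404201, 603332, 798104 and 144808 UMIs. All intervals cover counting error only. The 4 libraries shared between 15 and 27 cell barcodes in each pair, and no *LAMA2*+ nucleus shared its barcode with a *LAMA2*+ nucleus of another library.

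**Figure D1:**
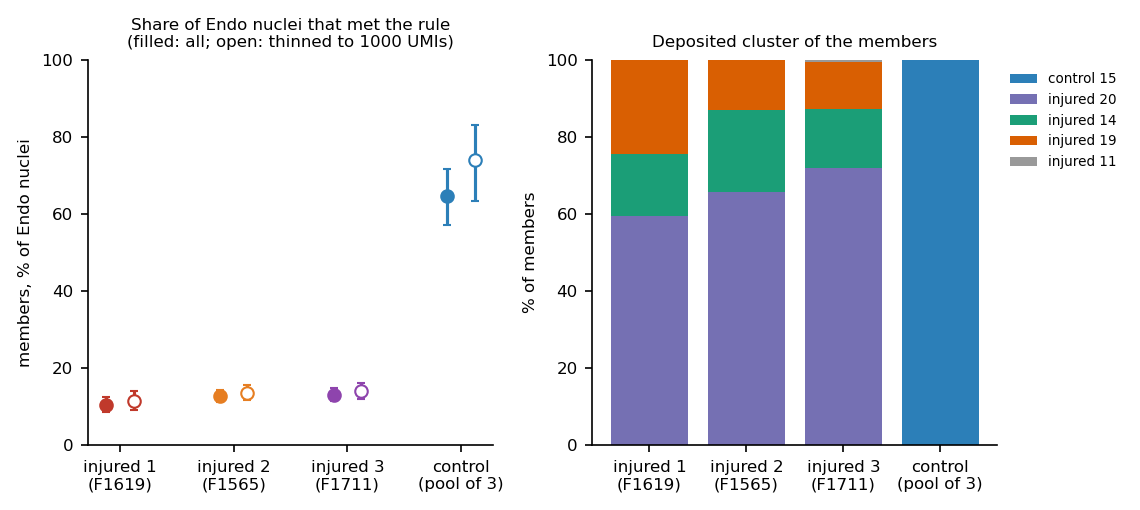
Left, share of Endo nuclei (y axis, %) that held a *LAMA2* UMI and no *FLT1* UMI in each library, with exact 95% intervals, before (filled) and after (open) thinning to 1000 UMIs. Right, share of these nuclei (y axis, %) by deposited cluster. The control library stands at 64.6% against 10.4% to 13.1%, and its members lie in 1 cluster while those of the injured libraries lie mainly in 3. The authors clustered each cohort separately, so cluster numbers and the count of clusters cannot be compared between cohorts.

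The rule rests on few molecules near its edge. Exactly 1 *LAMA2* UMI was held by 37, 56 and 59 of the members of injured replicates 1, 2 and 3 and by 6 of the 117 control members. For comparison, a *LAMA2* UMI was found in 15.8% of injured excitatory neurons (median 5949 UMIs) and in 5.04% of injured microglia (median 3026 UMIs). Among injured members with 1 *LAMA2* UMI, 53.9% held at least 2 of the other fibroblast markers, and among those with more it was 95.7%. Just outside the rule, 59 injured Endo nuclei had a *LAMA2* UMI and 1 *FLT1* UMI. Of these, 94.9% held at least 2 fibroblast markers, and their summed endothelial markers stood at 3581 CPM (UMIs of a gene or list scaled to the same total of UMIs in each group of nuclei) against 1366 CPM in members with 2 or more *LAMA2* UMIs.

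The fibroblast label was checked against 22 further fibroblast markers, of which 20 are listed in both cohorts' tables. At least 2 of them were found in 77.4%, 84.2% and 87.3% of injured members and in 93.2% of control members, and in 37.2%, 32.5%, 47.9% and 40.6% of the other Endo nuclei of the same libraries. *SLC6A13* had a UMI in 49.1% ± 8.59 (SD, n = 3) of injured members and in 67.5% of control members, against 0.858% of injured excitatory neurons. After thinning, the shares in members were 35.4% ± 8.63 and 73.0%. *DCN*, the collagen-binding proteoglycan decorin, stood at 1262, 1086 and 1240 CPM in the injured members and at 780 CPM in the control members. *CEMIP*, which takes part in hyaluronan breakdown, stood at 4245, 3174, 4935 and 6236 CPM in the same order. In the other Endo nuclei *DCN* stood at 154 CPM (injured mean) and 236 CPM (control), and *CEMIP* at 374 and 2834 CPM. Some markers of the list were lower in members. *FBLN1* stood at 13.8 CPM in control members and 219 CPM in control other Endo nuclei. *MGP* had an injured mean of 166 CPM in members and 583 CPM in the other Endo nuclei. The summed fibroblast markers stood at 14839, 10464, 15721 and 12700 CPM in members and at 2563, 1974, 3325 and 3964 CPM in the other Endo nuclei. These are descriptions, since the members were picked from the same nuclei.

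The label fits the control members and the main group of injured members, and is not borne out for the rest. The authors clustered each cohort separately, so cluster numbers and the count of clusters cannot be compared between cohorts. All 117 control members lay in deposited cluster 15. Of the 548 injured members, 367 lay in cluster 20, called the main cluster here, and 98, 82 and 1 lay in clusters 14, 19 and 11. Main-cluster members held a median of 9 fibroblast markers, summed to 16999 CPM. The next lists there were smooth muscle (1306 CPM), astrocyte (1032 CPM) and endothelial markers (984 CPM), with excitatory neuron markers at 485 CPM and pericyte markers at 266 CPM. Control members held a median of 5 fibroblast markers, summed to 12700 CPM. Their next lists were astrocyte (1602 CPM), smooth muscle (808 CPM) and endothelial markers (718 CPM), and *SLC1A3* of the astrocyte list had a UMI in 55.6% of them. In the 98 nuclei of cluster 14, pericyte markers (6504 CPM) and endothelial markers (4509 CPM) stood above fibroblast markers (3766 CPM), although 83.7% of them held at least 2 fibroblast markers (median 3). In the 82 nuclei of cluster 19, the median number of fibroblast markers was 0 and excitatory neuron markers reached 5412 CPM against 485 CPM of fibroblast markers. The fibroblast label is therefore not used for the 181 injured members outside the main cluster, whose leading marker lists were those of other cells. Values for the main cluster alone, a fit added after the data were seen, are given below where a named gene no longer passed a limit there. Genes called only there are named as well.

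**Figure D2:**
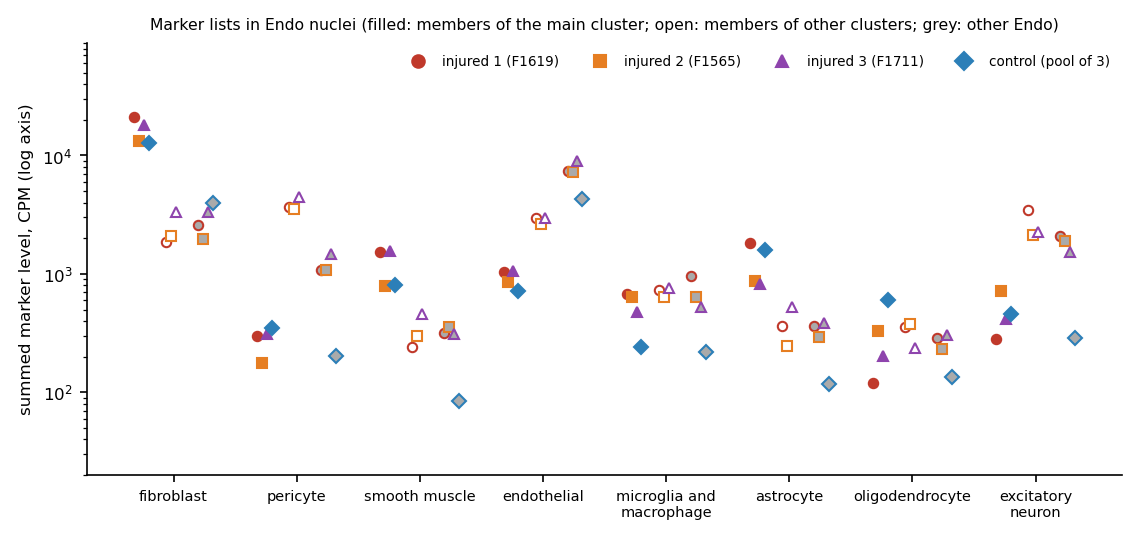
Summed level of each marker list (y axis, CPM, log axis) in each library for members of the main cluster (filled), members of other clusters (open) and other Endo nuclei (grey). The fibroblast list sits between 13156 and 20958 CPM in injured main-cluster members and at 12700 CPM in control members, above every other class of nuclei, while the pericyte list is highest in members outside the main cluster.

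Members were also sorted by whether they carried *SLC6A13* and a fibrillar collagen (*COL1A1*, *COL1A2* or *COL3A1*), after thinning to 1000 UMIs. Any of these collagens was found in 46.2%, 40.9% and 57.8% of injured members and in 38.1% of 63 control members (exact 95% interval 26.1% to 51.2%), so only F1711 lay above the control interval. In the main cluster the shares were 69.6%, 55.6% and 74.6%, and none of these shares was tested. *SLC6A13* was found in 31.2%, 45.3% and 29.7% of injured members and in 73.0% of control members (60.3% to 83.4%). A collagen without *SLC6A13* was found in 31.2%, 16.7% and 40.1% of injured members (29.3% ± 11.8, SD, n = 3) and in 7.94% of control members (2.63% to 17.6%). *SLC6A13* without collagen was found in 16.1%, 21.2% and 11.98% of injured members and in 42.9% of control members (30.5% to 56.0%). Both were found in 15.1%, 24.1% and 17.7% of injured and 30.2% of control members, and in the main cluster alone in 25.0%, 33.3% and 23.9%, which span the control value. In the main cluster alone the collagen-only share was 44.6%, 22.2% and 50.7%, and the *SLC6A13*-only share was 19.6%, 25.9% and 10.6%. F1565 had the lowest collagen-only share and the highest *SLC6A13*-only share of the injured libraries, in all members and in the main cluster.

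The comparison of injured with control asked which genes differ between the *LAMA2*+ nuclei of the cohorts. Counts were summed over the members of each library and fitted with edgeR, and a gene was called at a Benjamini-Hochberg adjusted p below 0.01, provided that its fold change exceeded 0.25 in size on the natural log scale and that 10% or more of the members of either cohort held a UMI of it. *LAMA2* and *FLT1* were left out. Of 9587 genes tested, 3 were called (0.0313%): *B2M* and *TFEC* rose (0.0209% of genes tested) and the gene ENSCJAG00000002089, for which no symbol was found, fell (0.0104%). All 3 moved the same way in the other Endo nuclei, with log2 fold changes of 6.33, 3.53 and -5.03 in that order. At an unadjusted p below 0.05 there were 1861 genes. At an adjusted p limit of 0.05, an alternative, 64 genes were higher (0.668%) and 16 lower (0.167%), or 80 in all (0.834%). Of the 64 higher genes, 63 also had a positive log2 fold change in the other Endo nuclei, so these rises are not particular to the members. Of the 14 lower genes tested in the other Endo nuclei, 11 had a negative one. None of the 80 passed 0.05 without F1619, while 841 genes passed it without F1565 and 656 without F1711. For every gene named below as past 0.05, passing the limit thus depended on having F1619 in the fit. All 80 kept their sign without F1619. The 0.01 limit gave 0 calls in edgeR without F1619, the injured library with the fewest members (16.4% of 9561 tested genes had an unadjusted p below 0.05), 373 higher and 128 lower without F1565, and 326 higher and 69 lower without F1711. In the main cluster 6 genes were called higher and 1 lower, and of the 80 genes past 0.05 among all members, 47 passed it there and 79 kept their sign. Beside *B2M* and *TFEC*, the genes called higher there were *CAJA-E*, *C1S*, *FTL* and ENSCJAG00000002138.

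*B2M*, the light chain of MHC class I, stood at 5705, 4825 and 3028 CPM in injured replicates 1, 2 and 3 and at 69.1 CPM in the control members (10 UMIs; exact 95% Poisson interval 33.1 to 127 CPM). All injured libraries lay far above the control library. The fitted log2 fold change was 6.06 (SE 0.57, edgeR adjusted p = 0.0091). *TFEC*, a transcription factor of the MiT family known from myeloid cells, stood at 1423, 1202 and 1022 CPM against 55.2 CPM, with a log2 fold change of 4.48 (SE 0.44, edgeR adjusted p = 0.0091). The other Endo nuclei of the injured libraries stood at 12571, 12314 and 8336 CPM of *B2M*, above the members of each library. In injured excitatory neurons *B2M* stood at 810 CPM and *TFEC* at 1755 CPM, and in the other injured Endo nuclei *TFEC* stood at 788 CPM. The *TFEC* level of the injured members, 1172 CPM over the 3 libraries, thus lay below that of neurons and above that of the other Endo nuclei, and the part of free RNA in it was not tested. ENSCJAG00000002089 stood at 2.47, 3.31 and 8.77 CPM in the injured members against 228 CPM in control members, with a log2 fold change of -5.28 (SE 0.53, edgeR adjusted p = 0.0091).

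**Figure D3:**
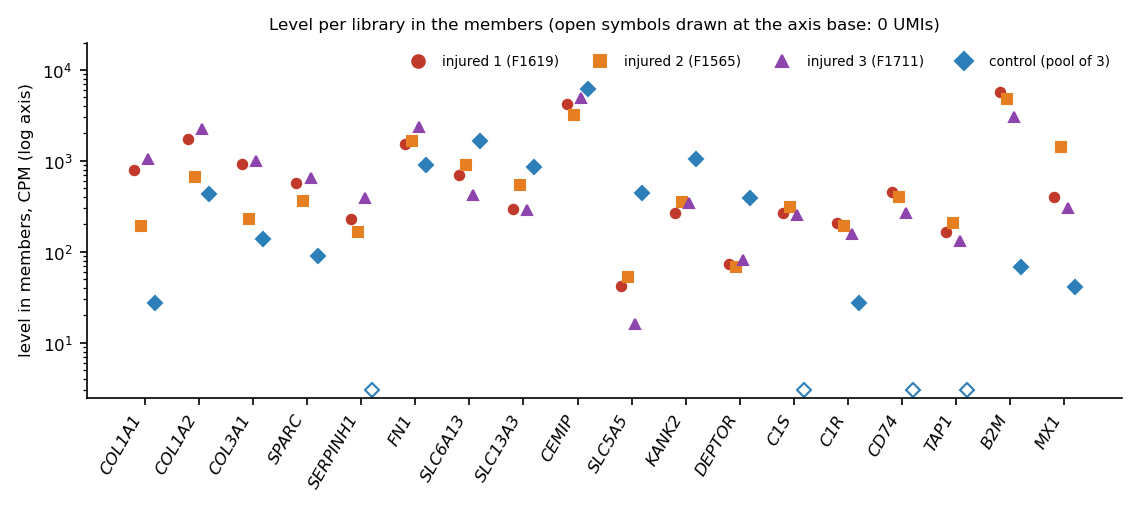
Level of selected genes in the members of each library (y axis, CPM, log axis), with genes at 0 UMIs drawn open at the base. The 3 injured libraries lie above the control library for the collagens, complement and antigen presentation genes shown and below it for *SLC6A13*, *SLC13A3*, *CEMIP*, *SLC5A5*, *KANK2* and *DEPTOR*.

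Genes of the extracellular matrix were mostly higher in injured members, and few passed a test. Of 18 tested genes for fibrillar collagens and their assembly, 16 had a positive log2 fold change, 0 were called at 0.01, 1 passed 0.05 and 9 had an unadjusted p below 0.05, with a median of 1.19 against 0.12 over all genes tested. Of all genes tested, 54.6% had a positive log2 fold change and 12.7% were higher at an unadjusted p below 0.05, and the counts of every list are to be read against these shares. A tested gene with 0 control UMIs can only come out higher, and 612 of all genes tested had 0. Such genes were 1 of the 18 here, 4 of the matrix glycoproteins and proteoglycans and 3 of the matrix proteases and inhibitors. They were 2 of the basement membrane genes and 2 of the complement genes. All 3 injured libraries lay above the control library for 39.9% of all genes tested, and none did for 36.2%. *SERPINH1*, the collagen chaperone HSP47, was the gene past 0.05, at 233, 164 and 395 CPM with 0 UMIs in control members, which makes it at least 13.6-fold higher (bound against the level of 3 UMIs over the control members, 20.7 CPM, edgeR adjusted p = 0.0471). *COL1A1*, a chain of type I collagen, stood at 802, 191 and 1060 CPM against 27.6 CPM (log2 fold change 4.65, SE 1.21, edgeR adjusted p = 0.105). The other type I chain, *COL1A2*, stood at 1744, 663 and 2232 CPM against 428 CPM (edgeR adjusted p = 0.162). *COL3A1*, type III collagen, stood at 930, 232 and 989 CPM against 138 CPM (edgeR adjusted p = 0.170), and *COL6A2*, a type VI chain, at 854, 290 and 955 CPM against 117 CPM (edgeR adjusted p = 0.119). All 4 collagens stood above the control level in every injured library, with F1565 lowest by a wide margin. In the main cluster the fitted log2 fold changes of *COL1A1*, *COL1A2* and *COL3A1* were 5.06, 2.29 and 2.82.

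Among 22 tested matrix glycoproteins and proteoglycans, 18 had a positive log2 fold change (median 1.37, and 0.89 with genes at 0 in control set to their bound), and 2 passed 0.05. In the other Endo nuclei the fitted median of this list was 1.92, and that of the fibrillar collagen list was 0.89 (0.49 over all genes tested). Medians of the other Endo nuclei here and below set no bound for genes at 0 in their 59287 control UMIs. Their size is therefore not to be compared with that of the members. *SPARC*, a collagen-binding matrix protein, stood at 567, 365 and 652 CPM against 89.8 CPM (log2 fold change 2.58, SE 0.48, edgeR adjusted p = 0.0478), and it did not pass 0.05 in the main cluster alone, where the log2 fold change was 2.47. *MGP*, an inhibitor of calcification, stood at 213, 123 and 162 CPM with 0 control UMIs, at least 7.73-fold higher (edgeR adjusted p = 0.0329). Most of that *MGP* lay outside the main cluster (566 CPM in the other injured members against 44.8 CPM in the main cluster), Endo nuclei with *FLT1* stood at 798 CPM, and *MGP* did not pass 0.05 in the main cluster alone. *FN1*, fibronectin, stood at 1551, 1654 and 2362 CPM against 912 CPM (edgeR adjusted p = 0.155). Of 20 tested matrix proteases and inhibitors, 15 were positive and 1 passed 0.05, which was *TIMP1*, an inhibitor of metalloproteinases, at 153, 96.1 and 97.7 CPM with 0 control UMIs (at least 5.29-fold higher, edgeR adjusted p = 0.0467). Basement membrane genes gave 13 positive of 19 (median 0.66, and 0.42 with bounds), with 0 past 0.05.

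Markers of activated fibroblasts were all on the higher side in the fit, and few passed a test. The list was higher in the other Endo nuclei too, with a fitted median of 1.64 there (0.49 over all genes tested). It summed to 2782 ± 704 CPM (SD, n = 3) in the injured and 1079 CPM in the control other Endo nuclei. Among the 15 tested members of the list, 3 had 0 control UMIs and could only come out higher. All 15 had a positive log2 fold change (median 1.32, and 1.06 with bounds), 0 were called and 1 passed 0.05. That gene was *S100A6*, a calcium-binding protein, at 238, 139 and 192 CPM with 0 control UMIs (at least 8.90-fold higher, edgeR adjusted p = 0.0307). *VIM*, vimentin, stood at 502, 171 and 352 CPM against 48.3 CPM (edgeR adjusted p = 0.107). *ACTA2*, the contractile actin of myofibroblasts and smooth muscle, stood at 22.3, 18.2 and 43.9 CPM against 27.6 CPM, a range that spans the control level (log2 fold change 0.12, edgeR adjusted p = 0.947). The cell cycle list held 9 tested genes, of which 6 had 0 control UMIs, and its median was 5.89 as fitted and 0.02 with those genes at their bound. All 9 had a positive log2 fold change, 0 passed 0.05, and the list summed to 376, 152 and 289 CPM in the injured members against 48.3 CPM in control members.

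Transporters of resting fibroblasts showed no shared direction that passed a test. Of 18 tested solute carriers and ABC transporters, 7 had a positive and 11 a negative log2 fold change, with 0 called and 0 past 0.05. The median was -0.37, and 0.02 in the main cluster. The list summed to 4496 ± 640 CPM (SD) in injured and 6913 CPM in control members. In the other Endo nuclei it summed to 986 ± 106 CPM (SD) in the injured libraries and 9935 CPM in the control library. The list was thus not particular to members in the control library. Its fitted median in the other Endo nuclei was -0.29, and the sums were not tested. *SLC6A13* stood at 698, 895 and 424 CPM in the injured members against 1644 CPM in control (interval 1441 to 1866 CPM), with a log2 fold change of -1.26 (SE 0.37, edgeR adjusted p = 0.127). All injured libraries lay below the control library. *SLC13A3*, a dicarboxylate carrier, stood at 297, 549 and 292 CPM against 863 CPM (edgeR adjusted p = 0.165). In the main cluster the 2 log2 fold changes were -0.89 and -0.70. *SLC7A11*, the cystine-glutamate exchanger, stood at 1371, 1437 and 971 CPM against 1609 CPM, a difference of -0.32 on the log2 scale (edgeR adjusted p = 0.577).

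Genes with the smallest p among the decreases included several that stood out in control members. *SLC5A5*, the sodium-iodide symporter, stood at 42.1, 53.0 and 16.3 CPM against 442 CPM (log2 fold change -3.59, SE 0.47, edgeR adjusted p = 0.0177). In control members 29.9% held an *SLC5A5* UMI, against 2.17% of control excitatory neurons. *DEPTOR*, an inhibitor of mTOR, stood at 74.2, 68.0 and 81.4 CPM against 387 CPM (log2 fold change -2.33, SE 0.28, edgeR adjusted p = 0.0166). *KANK2*, which links integrins to the cytoskeleton, stood at 270, 355 and 343 CPM against 1057 CPM (log2 fold change -1.67, SE 0.27, edgeR adjusted p = 0.0390). *MLXIPL*, a glucose-responsive transcription factor, and *TPCN1*, a lysosomal channel, had log2 fold changes of -2.75 and -2.05 (edgeR adjusted p = 0.0307 and 0.0451). For each of these 5 genes the control library lay above all injured libraries. In the main cluster alone *KANK2* and *TPCN1* did not pass 0.05, with log2 fold changes of -1.38 and -1.66. *SLC1A2*, the glutamate transporter of astrocytes, also came out lower (edgeR adjusted p = 0.0307), but its 47 control UMIs came from 3.42% of the control members, against 12.8% of injured members with a UMI. *KLHL22* and ENSCJAG00000011364 had 16 and 23 control UMIs and 0 UMIs in any injured nucleus of any class, so for these genes no level in the injured cohort can be given. Another gene without a symbol completes the 10 decreases of smallest p.

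Antigen presentation and complement genes were the lists with most genes past 0.05. Of 16 tested antigen presentation genes, all 16 had a positive log2 fold change (median 2.41, and 1.67 with bounds), 1 was called (*B2M*) and 3 passed 0.05. Among the 16, 5 had 0 control UMIs and could only come out higher. In the other Endo nuclei the fitted median of the list was 4.76 without bounds. *CD74*, the chaperone of MHC class II, stood at 450, 398 and 266 CPM with 0 UMIs in control members, at least 16.9-fold higher (edgeR adjusted p = 0.0166). *TAP1*, a peptide transporter for MHC class I, stood at 166, 209 and 130 CPM with 0 control UMIs, at least 7.94-fold higher (edgeR adjusted p = 0.0322). The MHC gene *CAJA-E* had 1 control UMI and stood at 663, 646 and 434 CPM in injured members, a ratio of 80.5 (counting interval 14.4 to 3183, edgeR adjusted p = 0.0128). *CD74* had a UMI in 55.1% of injured members (median 2669.5 UMIs) and in 45.2% of injured excitatory neurons (median 5949 UMIs), at 351 and 111 CPM, and it stood at 1169 CPM in injured microglia. Of the microglia and macrophage markers, *CD74* was the one past 0.05, and the list summed to 693, 638 and 521 CPM in injured members against 242 CPM in control members. *CD74* itself gave 450, 398 and 266 CPM of these sums and 0 of the control sum, which is about the whole difference between these sums. *C1QB*, a marker of the same list with no row in the control table, is not in the sums. It stood at 81.6, 64.6 and 47.6 CPM in the injured members.

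Of 11 tested complement genes, 10 had a positive log2 fold change (median 2.74, and 2.34 with bounds), 0 were called at 0.01 and 4 passed 0.05. In the main cluster alone *C1S* was called (edgeR adjusted p = 0.0050). The fitted median of the list in the other Endo nuclei was 2.69 without bounds. *C1S* and *C1R* encode the proteases of the first complement component. *C1S* stood at 267, 310 and 254 CPM with 0 control UMIs, at least 13.3-fold higher (edgeR adjusted p = 0.0128), and *C1R* at 205, 194 and 159 CPM against 27.6 CPM (log2 fold change 2.77, edgeR adjusted p = 0.0471). *SERPING1*, which inhibits both, stood at 255, 270 and 217 CPM against 27.6 CPM (log2 fold change 3.18, edgeR adjusted p = 0.0310). *CLU*, clusterin, stood at 334, 388 and 603 CPM against 41.4 CPM (log2 fold change 3.45, edgeR adjusted p = 0.0460). For *C1S*, *C1R* and *SERPING1* the spread among injured libraries was small beside the distance to control. For *CLU* it was wider (SD 142 CPM), with all injured libraries above control. *C7*, a terminal component, stood at 1257, 1119 and 1215 CPM against 1333 CPM (log2 fold change -0.12, edgeR adjusted p = 0.815). *C1S* stood at 334 CPM in injured main-cluster members, 70.1 CPM in members outside it, 89.4 CPM in microglia and 9.24 CPM in excitatory neurons.

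Interferon response genes were mostly higher in the injured members, and unequally so between animals. Of 36 tested, 34 had a positive log2 fold change (median 2.76, and 2.32 with bounds), 22 of them with an unadjusted p below 0.05 (12.7% of all genes tested), and 0 were called or passed 0.05. Among the 36, 7 had 0 control UMIs and could only come out higher. In the other Endo nuclei the fitted median of the list was 3.06 without bounds. The list summed to 6672, 16886 and 6191 CPM in the members of F1619, F1565 and F1711 and to 2134 CPM in control members. F1565 stood apart from the other injured animals. *MX1*, an antiviral GTPase, stood at 403, 1437 and 302 CPM against 41.4 CPM (log2 fold change 4.15, SE 1.21, edgeR adjusted p = 0.127). The excitatory neurons of the same animals also had their highest sum in F1565, at 3138, 4659 and 1371 CPM against 360 CPM in control. In the fibrillar collagen list F1565 was the lowest injured library, at 6660, 3214 and 8120 CPM in the injured members against 1996 CPM, and at 9247, 3797 and 9231 CPM in the main cluster. With 3 animals no relation between the 2 lists was tested.

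**Figure D4:**
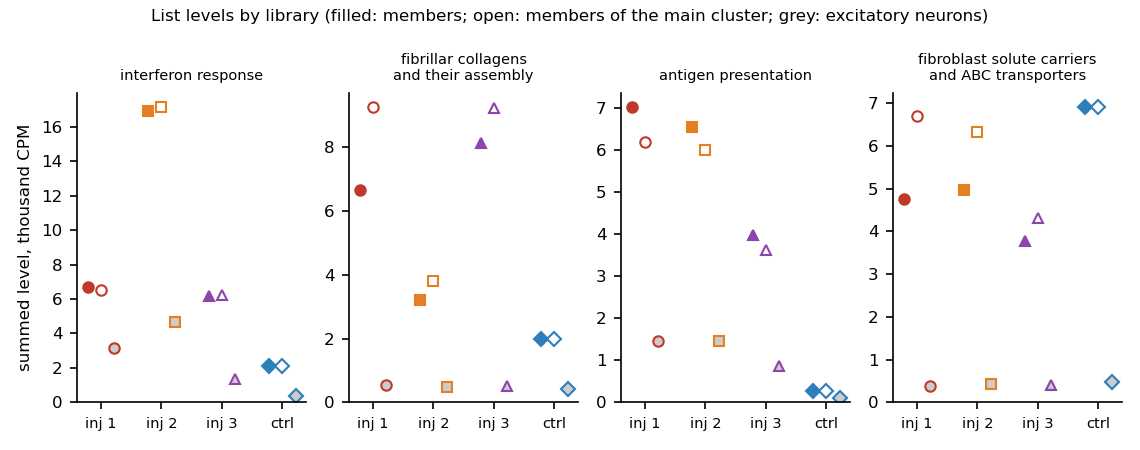
Summed level of 4 gene lists (y axis, CPM divided by 1000) in members (filled), members of the main cluster (open) and excitatory neurons (grey) of each library. F1565 (injured 2) is highest for interferon response genes and lowest among injured libraries for fibrillar collagens, in all members and in the main cluster.

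Growth factor genes showed single large differences with wide spread. In the IGF system 10 of 13 tested genes had a positive log2 fold change (median 1.11), 7 of them with an unadjusted p below 0.05, and 0 passed 0.05 after adjustment. *IGFBP3*, a binding protein for insulin-like growth factors, stood at 136, 668 and 756 CPM with 1 control UMI, a ratio of 85.1 (counting interval 15.2 to 3364, edgeR adjusted p = 0.0998). *IGFBP2* stood at 376, 133 and 372 CPM with 2 control UMIs, a ratio of 21.2 (5.84 to 176, edgeR adjusted p = 0.0802). In TGF-beta and BMP signalling 15 of 27 tested genes were positive and 12 negative (median 0.16), 0 past 0.05, which is near the share over all genes. *TGFB2*, a ligand of that pathway, stood at 69.3, 192 and 550 CPM against 117 CPM, so the injured libraries spanned the control level (edgeR adjusted p = 0.534). *TGFBR3*, betaglycan, stood at 1272, 946 and 1175 CPM against 2279 CPM (log2 fold change -0.98, edgeR adjusted p = 0.105). In PDGF, FGF and VEGF signalling 11 of 19 were positive (median 0.21), 0 past 0.05, and *FGFR2* stood at 186, 214 and 158 CPM against 490 CPM (edgeR adjusted p = 0.0671). Of 13 tested chemokine and cytokine genes 11 were positive and 0 passed 0.05. *OSMR*, the oncostatin M receptor, stood at 56.9, 104 and 236 CPM with 1 control UMI, a ratio of 22.0 (3.91 to 871). Retinoid genes gave 6 positive of 9 (median 0.26) and adhesion and migration genes 17 of 25 (median 0.54), with 0 past 0.05 in either list. *FTL*, ferritin light chain, was the gene past 0.05 among 18 tested genes of hypoxia, glycolysis and iron, at 980, 631 and 779 CPM against 62.2 CPM (log2 fold change 3.70, SE 0.45, edgeR adjusted p = 0.0166).

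**Figure D5:**
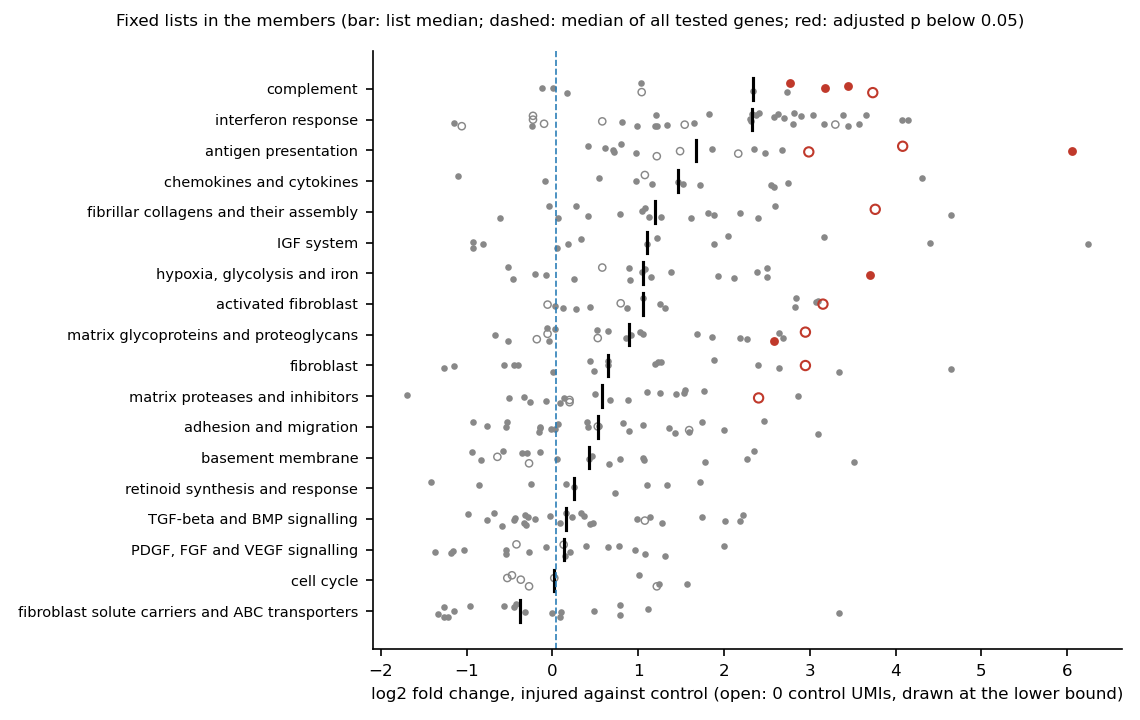
Log2 fold change of each tested gene (x axis) by fixed list, with genes at 0 in control drawn open at their lower bound, the list median as a bar and genes past an adjusted p of 0.05 in red. A bound left of 0 says only that the gene was too low in both cohorts to set a fold. Of the lists plotted, complement, interferon response and antigen presentation have the highest medians (2.34, 2.32 and 1.67), and the median of all genes tested is 0.05 on the same scale.

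The rest of the 10 increases of smallest p were genes of protein folding, translation and unknown name. *HSPA5*, the main chaperone of the endoplasmic reticulum, stood at 421, 373 and 530 CPM with 2 control UMIs, a ratio of 32.8 (counting interval 9.05 to 271, edgeR adjusted p = 0.0166). *RPS28*, a ribosomal protein, stood at 468, 322 and 356 CPM with 3 control UMIs, a ratio of 17.8 (6.08 to 86.7, edgeR adjusted p = 0.0174). The genes ENSCJAG00000012662 (1 control UMI) and ENSCJAG00000002138 (0 control UMIs) have no symbol. Of 53 ribosomal protein genes tested, 49 had a positive log2 fold change and 6 passed 0.05, against 54.6% and 0.834% of all genes tested. Of the 64 genes higher at 0.05, 19 had 0 control UMIs and 25 had 1 to 3.

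Whether the injury difference differed between members and the other Endo nuclei was tested as an interaction with library as a block. The result is signed, so a higher difference in members can also come from a fall in the other Endo nuclei. Of 11500 genes, 37 had a higher (0.322%) and 5 a lower difference in members (0.0435%) at an edgeR adjusted p below 0.01, and none of these was among the 80 genes past 0.05 in the members. *GPC3*, a glypican, stood at 280, 517 and 343 CPM in injured and 559 CPM in control members, and at 51.5 ± 11.02 CPM (SD, n = 3) in injured and 1181 CPM in control other Endo nuclei. Its log2 fold change was -0.51 in the members and -4.20 in the other Endo nuclei. *SLC47A1*, an organic cation exporter, stood at 19.8, 161 and 89.0 CPM in injured and 96.7 CPM in control members, and at 127 CPM in injured and 3812 CPM in control other Endo nuclei. *DLG2*, a synaptic scaffold gene, was the gene of smallest p in the other direction, with 311 CPM in control members but 1 UMI in the control other Endo nuclei. Those control nuclei number 64, with 59287 UMIs, and 39 of them had neither *LAMA2* nor *FLT1*. Of the 39, 92.3% lay in cluster 15 with the control members and 56.4% held at least 2 fibroblast markers. Of the 2448 such nuclei of the injured libraries, 11.9% lay in the main cluster and 26.3% held at least 2 fibroblast markers. The clusters come from separate clusterings of the 2 cohorts. The other Endo nuclei thus differ in make-up between cohorts, and the part of that in the interaction was not tested. Without the library block 0 genes were called, with 1163 at an unadjusted p below 0.05.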

How the data were processed

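Nuclei of 3 injured animals and of 1 control pool of 3 animals were profiled by 10x single-nucleus RNA-seq. The authors deposited raw UMI counts per gene and nucleus, made with Cell Ranger (3.1.0 per the labels) on calJac3. Cell classes and clusters came from Seurat, run separately for each cohort. The authors removed doublets with Scrublet in the injured libraries and by a limit on genes in the control library, and none were removed here. Both tissues went through a Dounce grinder, but injured tissue was first pulverized and its nuclei spun through a sucrose cushion, control nuclei were sorted by FACS on a DNA stain, and the sequencing instruments differed. The control table lists 16383 genes, all among the 32323 of the injured table.

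The deposited counts were summed over the *LAMA2*+ nuclei of each library and tested with edgeR 4.0.16 (R 4.3.3, limma 3.58.1; filterByExpr, TMM factors, quasi-likelihood test, Benjamini-Hochberg adjustment), 3 injured against 1 control library. P-values therefore measure only the spread between the 3 injured libraries. DESeq2 1.42.0 was an alternative. Levels, intervals and thinning used Python 3.11.15, numpy 2.4.6, pandas 2.3.3 and scipy 1.17.1. CPM scales the summed UMIs of each group of nuclei to a common total. Symbols for 965 gene IDs came from a reference name table. Named genes were, since fewer than 10 were called, the 10 increases and 10 decreases of smallest p that met the detection limit, called list genes, the fixed markers, and the 5 interaction genes of smallest p in each direction with called list genes. Other genes were named for their known role after their values were seen. The members and lists were chosen with earlier results of these data known. Scripts were tested on simulated data. A gene of the interferon list is not reported here by name.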

Additional observations from a re-analysis of the deposited data

Results flagged for a closer look

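The injury difference differed between the *LAMA2*+ nuclei and the other Endo nuclei, by the interaction test with edgeR, for 18 genes named by rule. Each value is a log2 difference, the injury difference of members minus that of the other Endo nuclei. The genes of smallest p with a higher difference were *GPC3* (3.71), *THSD4* (3.13), *EYA2* (2.86), *GPC6* (4.27) and *SULF1* (5.66). List genes called in that direction were *SLC4A4* (4.30), *SLC26A2* (5.70), *SLC47A1* (4.52), *VCAN* (5.51), *TGFB2* (4.59), *FBLN1* (5.30), *NDRG1* (2.87) and *SLC26A7* (4.81). In each of these 13 genes the control level was higher in the other Endo nuclei than in the members, and the log2 fold change in the other Endo nuclei was negative. *SULF1*, a heparan sulfatase, stood at 1754 CPM in control other Endo nuclei and had 3 UMIs in control members. *SLC26A2*, *VCAN*, *FBLN1* and *SLC26A7* had 2, 3, 2 and 2 UMIs in control members, so the fitted sizes of these 5 genes also depend on very few molecules.

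A lower difference was found for *DLG2* (-5.08), *EPHA3* (-3.84), *MAPK10* (-3.11), *DSCAM* (-3.93) and *ADGRB3* (-3.94), genes best known from neurons. The control other Endo nuclei held 1, 2, 6, 2 and 2 UMIs of these genes in that order, so the fitted sizes depend on very few molecules.

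Genes with no row in the control table took 0.790%, 0.624% and 0.583% of the member UMIs of injured replicates 1, 2 and 3, and they were left out of the main comparison with control. The most abundant was *GBP1*, an interferon-induced GTPase, at 277, 694 and 253 CPM. *CXCL10*, an interferon-induced chemokine, stood at 252, 555 and 242 CPM. Both were highest in F1565.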

How the results depend on the processing

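The main calls were 2 genes higher and 1 lower. Counts of genes higher and lower were 28 and 7 with DESeq2, 131 and 24 with no low-count filter, 64 and 16 at an adjusted p of 0.05, 65 and 19 with nuclei thinned to 1000 UMIs, and 17 and 4 with at most 2500 genes a nucleus. They were 8 and 1 with at least 2 *LAMA2* UMIs, 13 and 4 with another fibroblast marker required, 91 and 26 with no microglia marker UMI (20, 75 and 68 injured and 91 control members, a filter that includes *CD74* and so bears on nothing said of it), and 6 and 1 in the main cluster alone. RLE factors, library size alone, and counting genes with no control row as 0 each gave 2 and 1. Leaving out 1 injured library moved the count higher between 0 and 373 and the count lower between 0 and 128. Without F1619 none was called, without F1565 there were 373 and 128, and without F1711 326 and 69. Genes of the lists that were called numbered 1, and 8, 30, 14, 20, 5, 4, 4, 29 and 3 under the alternatives in the order first given, and between 0 and 87 with 1 injured library left out. The cause of these shifts was not tested.

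For the difference between members and other Endo nuclei, 37 genes were higher and 5 lower. The counts were 101 and 39 with no filter, 76 and 15 at 0.05, and 0 and 0 without the library block, and library size alone gave 49 and 2. With 1 injured library left out, the counts ran from 85 to 101 and from 20 to 34. The injured share of Endo nuclei was 8.62% with at least 2 *LAMA2* UMIs and 20.0% with *FLT1* ignored, beside control shares of 61.3% and 65.7%. The control share was 74.1% after thinning. *SLC6A13* was found in 35.4% of injured members after thinning. Neither the fold change of the 20 genes of smallest p nor the difference of the 18 interaction genes changed direction under the alternatives run for it. The median of the pericyte markers turned from 1.55 in all members to -1.20 in the main cluster. *B2M* and *TFEC* lost their call without F1619, and ENSCJAG00000002089 lost it there and with DESeq2. No paired analysis was possible because the replicate numbers are names in accession order and the control cohort is 1 library. With 144808 UMIs in control members, a gene at 0 there could stand at up to 20.7 CPM (3 UMIs, counting error only).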
